A study of Mus musculus with 6 samples.

Results

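The Ikaros zinc finger family comprises the 5 genes Ikzf1 to Ikzf5, and their mRNA was followed here in mouse T cells cultured to become regulatory T cells (Tregs) in the presence of DEL-1-Fc or of Fc. The members were taken by gene identity, as the rows whose Ensembl identifiers map to these symbols in GRCm38, and all 5 were found among the 39179 genes listed. The starting cells were naive CD4+ splenocytes of 6-week-old C57BL/6 wild-type mice. They were stimulated for 3 days by coated anti-CD3 together with 1 µg/ml anti-CD28, and received 5 ng/ml TGF-β1 and 40 ng/ml IL-2. The DEL-1-Fc group (3 libraries) also received DEL-1, a secreted integrin-binding glycoprotein encoded by Edil3, fused to an antibody Fc part. The Fc group (3 libraries) received the Fc part instead. All 6 libraries were therefore from activated, TGF-β-treated cells of a single genotype, and no resting or untreated cells were compared. Whether replicates stem from separate animals or cultures is not stated, so the p-values rest on a spread between libraries that could be purely technical.

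Ikaros family proteins are lymphoid transcription factors. A group of zinc fingers near the start of the protein binds DNA, and a further group near its end lets members pair with each other, so the balance between members can matter as well as the level of each. Ikzf1 encodes Ikaros, a regulator of lymphocyte development. Ikzf2 encodes Helios, which is known from mouse Tregs of thymic origin and supports their stability. Ikzf3 encodes Aiolos, known to repress Il2 in mouse helper T cells. Ikzf4 encodes Eos, which works with Foxp3 in mouse Tregs to silence effector genes. Ikzf5 encodes Pegasus, the most divergent member.

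The libraries held 33364166 to 61967687 counts, with the fewest in DEL-1-Fc replicate 1. Levels are given as CPM, counts scaled to a common library size. In a principal component analysis of log2 CPM, component 1 (44% of the variance) split DEL-1-Fc from Fc. On component 1, DEL-1-Fc replicates 1 to 3 scored -47.7, -14.3 and -12.8, and the Fc libraries 22.7 to 27.5. DEL-1-Fc replicate 1 thus lay away from DEL-1-Fc replicates 2 and 3 on component 1, and also on component 2 (23.3%). Values without that library are therefore given beside those with it. The CD4+ T cell and Treg markers Cd3e, Cd3d, Cd4, Foxp3 and Il2ra were all detected, with a summed level of 3862 to 4355 CPM with DEL-1-Fc and 3675 to 4036 CPM with Fc. The plasmacytoid dendritic cell markers Siglech, Spib and Tcf4 summed to 11.2 to 12.3 CPM with DEL-1-Fc and 11.5 to 13.5 CPM with Fc. Of them Spib was called higher in DEL-1-Fc (log2 fold change 1.26, edgeR adjusted p = 0.00074) and Tcf4 lower (-0.45, adjusted p = 0.0278). The 5 myeloid markers (Lyz2, Csf1r, Cd68, Itgam and Adgre1) summed to 4.51 to 4.99 CPM with DEL-1-Fc and 4.61 to 5.14 CPM with Fc. Of the 2 that could be tested, Cd68 and Itgam, 0 were called, beside 12.6% of all tested genes. In both the groups did not overlap, as in 34.8% of all tested genes. Cd68 was lower with DEL-1-Fc (log2 fold change -0.11) and Itgam higher (1.04, edgeR adjusted p = 0.178). Itgam shares 68.7% of its exon bases with Gm49368 on the same strand. The part of plasmacytoid dendritic or myeloid cells in the members' values was not tested. Siglech, and the NK cell marker Ncr1, had 0 counts in every library. Such a 0 leaves room for 3 counts, or 0.0899 CPM at the lowest depth, by counting error alone. In bulk RNA, fewer cells of a type and less RNA per cell cannot be told apart.

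The second zinc finger of the DNA-binding group shows how alike Ikzf1, Ikzf2, Ikzf3 and Ikzf4 are and whether short reads can still tell them apart. The coding bases of this finger are printed below from the GENCODE M21 transcript with the longest coding sequence of each gene, 5′ to 3′ on the sense strand, with the codons of the metal-binding cysteines and histidines in capitals.
Ikzf1: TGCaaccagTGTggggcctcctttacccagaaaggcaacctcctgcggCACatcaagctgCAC
Ikzf2: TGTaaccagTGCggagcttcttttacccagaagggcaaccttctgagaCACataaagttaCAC
Ikzf3: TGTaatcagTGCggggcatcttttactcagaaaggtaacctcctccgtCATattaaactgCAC
Ikzf4: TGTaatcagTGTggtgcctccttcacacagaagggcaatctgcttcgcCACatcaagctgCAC
Ikzf5: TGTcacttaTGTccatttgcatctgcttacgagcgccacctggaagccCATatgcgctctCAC

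The genes span chr11:11685003-11772926 (Ikzf1), chr1:69531214-69687245 (Ikzf2), chr11:98464902-98546031 (Ikzf3), chr10:128630843-128645991 (Ikzf4) and chr7:131388652-131410521 (Ikzf5) in GRCm38. The printed stretches lie in the same build at chr11:11754024-11754086 on the plus strand for Ikzf1, in exon 6 of 9, and on the minus strand for the others. They are at chr1:69570581-69570643 for Ikzf2 (exon 5 of 8), chr11:98488940-98489002 for Ikzf3 (exon 5 of 8), chr10:128640229-128640291 for Ikzf4 (exon 5 of 9) and chr7:131392501-131392563 for Ikzf5 (exon 4 of 4). Between Ikzf1, Ikzf2, Ikzf3 and Ikzf4, the 63 bases differed at 10 to 15 positions in each of the 6 pairs, and every one of these differences was synonymous, so the 4 genes encode the same finger. The second finger of Ikzf5 differed from each of the others at 33 to 37 bases, with 16 differing residues in each of the 4 pairs. Fingers were paired by their number from the start of the protein. Ikzf5 has 3 fingers before the middle of its protein, against 4 in each of the other members. Its second finger may therefore not correspond to theirs, and these differences do not measure how far Ikzf5 diverges. The longest exact run shared by the coding sequences of any pair was 26 bases, between Ikzf1 and Ikzf3.

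Over whole transcripts, 31-base words were shared with other genes by 0% of Ikzf1, 0.0115% of Ikzf3, 0.932% of Ikzf4 and 1.12% of Ikzf2. Within the family, only Ikzf2 and Ikzf4 shared any such word, 3 in each. The exception was Ikzf5, for which 82.7% of words also occurred in another gene, chiefly Pstk, a kinase of selenocysteine synthesis. Pstk runs on the opposite strand and covers 81.3% of the annotated exon bases of Ikzf5. The strand setting of the counting is not given in the sources used, so reads of Ikzf5 and Pstk may be mixed or discarded and every Ikzf5 value is less certain. Ikzf2 and Ikzf4 overlap other annotated genes over 1.24% (Gm29114) and 0.617% (Gm26876) of their exon bases, and Ikzf1 and Ikzf3 share no exon base with another gene.

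Scaled for exon length, the family was dominated by Ikzf1. Its level was 115.7 ± 5.48 CPM per kilobase in DEL-1-Fc and 112.0 ± 1.36 in Fc (SD, n = 3 each), above 96.8% to 97.6% of all tested genes in every library. Ikzf4 followed at 16.9 ± 2.22 CPM per kilobase in DEL-1-Fc and 17.6 ± 0.58 in Fc. Ikzf5 measured 10.8 ± 0.409 CPM per kilobase in DEL-1-Fc and 10.96 ± 0.288 in Fc. Ikzf3 measured 9.17 ± 1.63 in DEL-1-Fc and 8.07 ± 0.544 in Fc, and Ikzf2 was lowest at 2.15 ± 0.258 in DEL-1-Fc and 2.31 ± 0.125 in Fc, above 35.1% to 38.6% of tested genes.

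The same order, Ikzf1, Ikzf4, Ikzf5, Ikzf3 and Ikzf2, was found in each of the 6 libraries with the union of annotated exons as the length. With the longest transcript as the length, Ikzf3 stood above Ikzf5 in all 6 libraries (17.4 ± 3.1 against 14.0 ± 0.528 CPM per kilobase in DEL-1-Fc, and 15.3 ± 1.03 against 14.2 ± 0.372 in Fc). The order of these neighbours therefore rests on the length used, while Ikzf1, Ikzf4 and Ikzf2 kept their places under either length. Pstk covers 81.3% of the exon bases of Ikzf5, and reads there may be mixed or discarded. The level of Ikzf5, and so its place beside Ikzf3 and Ikzf4, is therefore uncertain under either length.

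**Figure D1:**
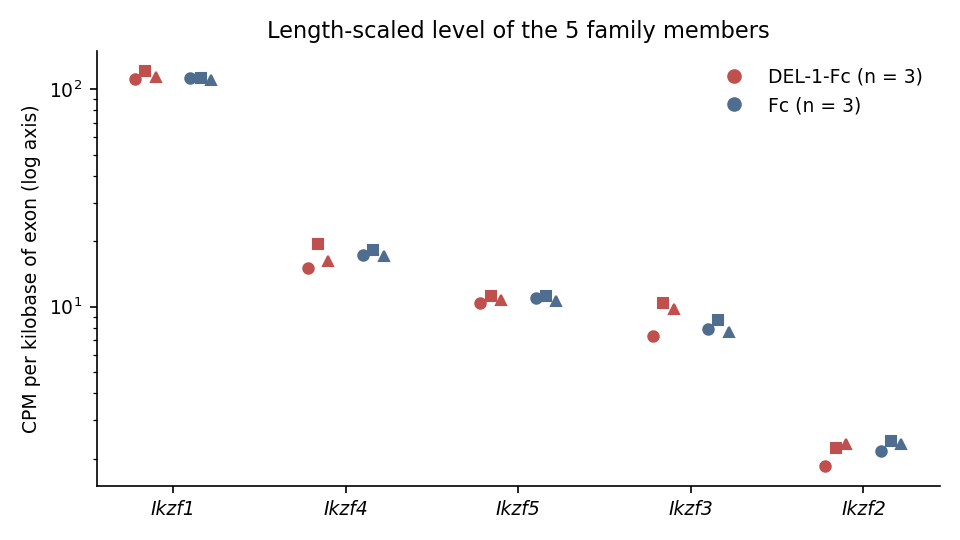
Level of each Ikaros family gene in CPM per kilobase of the union of annotated exons, on a log axis, with 1 point per library (circle, square and triangle for replicates 1, 2 and 3; DEL-1-Fc left of Fc). Ikzf1 lies between 110.4 and 121.8 in every library and Ikzf2 between 1.86 and 2.42, and the groups lie over each other for every gene.

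The comparison of DEL-1-Fc with Fc asks whether the integrin ligand changed these factors along with Foxp3, the Treg factor named in the series title. None of the 5 members was called at an edgeR adjusted p under 0.05, although 12.6% of the 14928 tested genes were, with 6.4% above and 6.22% below their Fc level. None had an unadjusted p under 0.05 either, the smallest being 0.163 for Ikzf3, and DESeq2 and limma-voom also called 0 of the 5. For none of the 5 did the 3 DEL-1-Fc libraries lie wholly above or below the 3 Fc libraries, which they did for 34.8% of all tested genes. All 5 passed the filter on low counts. Their log2 fold changes had a median of -0.02, against 0.01 over all tested genes. A p that misses the threshold does not show equal levels, so the interval of each difference is given.

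Ikzf1, encoding Ikaros, had 642.5, 703.6 and 658.6 CPM in DEL-1-Fc replicates 1 to 3, against 650.8, 652.5 and 638.1 CPM in Fc replicates 1 to 3. DEL-1-Fc replicates 2 and 3 lay above every Fc library, and DEL-1-Fc replicate 1 lay among the Fc values. The log2 fold change, DEL-1-Fc over Fc, was 0.05 (SE 0.0655, adjusted p = 0.693), and its 95% interval of -0.10 to 0.19 covers folds from 0.932 to 1.14.

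Ikzf2, encoding Helios, had 21.5, 26.1 and 27.2 CPM in DEL-1-Fc replicates 1 to 3, against 25.3, 28.1 and 27.1 CPM in Fc replicates 1 to 3. The lowest value was that of DEL-1-Fc replicate 1, and DEL-1-Fc replicates 2 and 3 lay inside the Fc range. The log2 fold change was -0.10 (SE 0.0961, adjusted p = 0.535; 95% interval -0.32 to 0.11), which covers folds from 0.801 to 1.08.

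Ikzf3, encoding Aiolos, had 64.1, 91.1 and 85.6 CPM in DEL-1-Fc replicates 1 to 3, against 69.3, 75.9 and 66.7 CPM in Fc replicates 1 to 3. DEL-1-Fc replicates 2 and 3 lay above every Fc library, and DEL-1-Fc replicate 1 lay below every one. The mean was 80.3 ± 14.3 CPM with DEL-1-Fc and 70.6 ± 4.76 CPM with Fc, so the spread within the DEL-1-Fc group exceeded the difference. The log2 fold change of 0.19 (SE 0.122, adjusted p = 0.368) had a 95% interval of -0.09 to 0.46, the widest of the family. Without DEL-1-Fc replicate 1, Ikzf3 was called higher in DEL-1-Fc (log2 fold change 0.32, SE 0.0602, adjusted p = 0.00439; 95% interval 0.19 to 0.46), a 1.25-fold difference with 88.4 CPM as the mean of the other 2 DEL-1-Fc libraries. In that fit 19.7% of 15208 genes were called, 9.76% higher in DEL-1-Fc, and Ikzf3 was the one member among them. Leaving out any other library gave adjusted p-values of 0.406 to 0.681 for Ikzf3.

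Ikzf4, encoding Eos, had 90.4, 116.0 and 97.0 CPM in DEL-1-Fc replicates 1 to 3, against 103.8, 109.2 and 102.7 CPM in Fc replicates 1 to 3. DEL-1-Fc replicate 2 was the highest library and the other DEL-1-Fc libraries were the lowest, so the Fc values lay inside the DEL-1-Fc range. The log2 fold change was -0.06 (SE 0.091, adjusted p = 0.73), with a 95% interval covering folds from 0.833 to 1.11. Without DEL-1-Fc replicate 1 it was 0.02 (adjusted p = 0.902), and without that library Ikzf1, Ikzf2 and Ikzf5 had 0.07, -0.01 and 0.01 (adjusted p = 0.375, 0.94 and 0.952).

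Ikzf5, encoding Pegasus and read together with the overlap by Pstk, had 59.6, 64.2 and 61.6 CPM in DEL-1-Fc replicates 1 to 3, against 62.6, 64.4 and 61.1 CPM in Fc replicates 1 to 3. The lowest library was again DEL-1-Fc replicate 1, and the groups overlapped. Its log2 fold change of -0.02 (SE 0.0601, adjusted p = 0.866) had the narrowest interval of the family, from -0.16 to 0.12. Pstk itself averaged 11.02 CPM with DEL-1-Fc and 10.4 CPM with Fc and was not called (log2 fold change 0.08, adjusted p = 0.64).

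**Figure D2:**
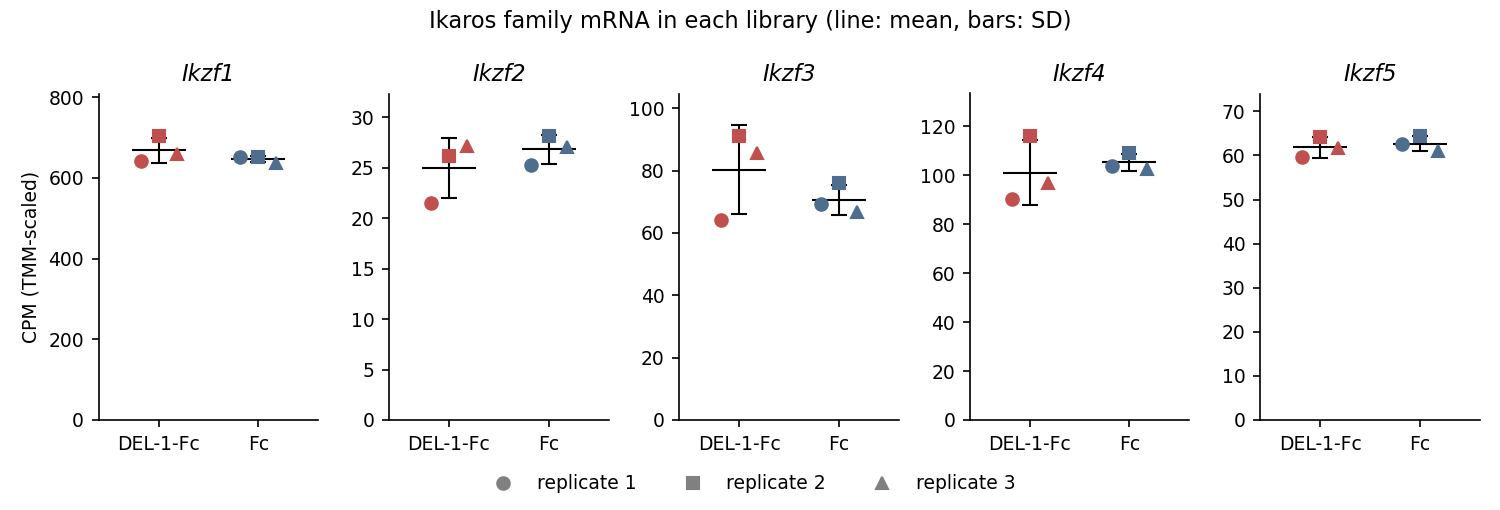
CPM of each member by library, 1 panel per gene with its own axis from 0, DEL-1-Fc left of Fc; symbols mark replicates, lines the mean and bars the SD (n = 3 each). DEL-1-Fc replicate 1 is the lowest library for Ikzf2, Ikzf3, Ikzf4 and Ikzf5, and for Ikzf3 the other 2 DEL-1-Fc libraries stand above all Fc libraries.

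**Figure D3:**
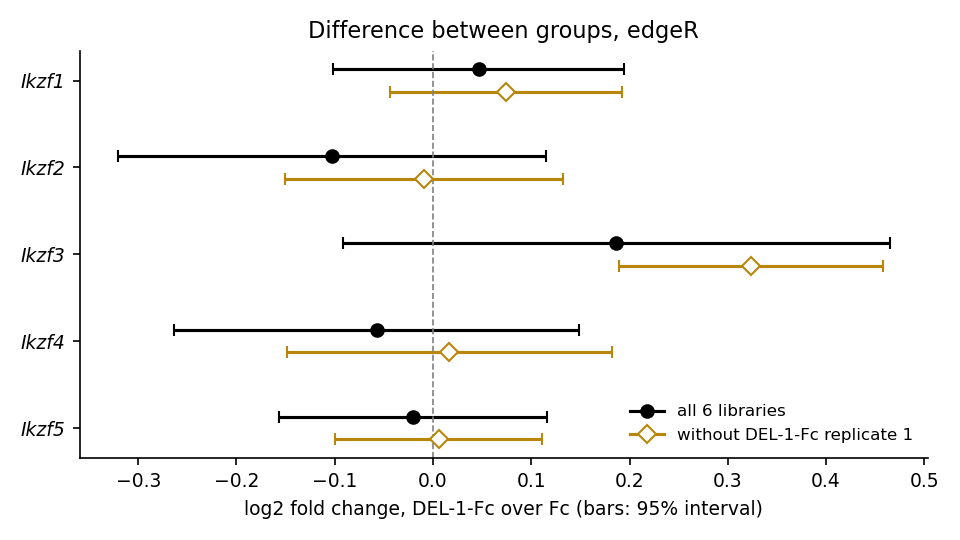
Log2 fold change of each member, DEL-1-Fc over Fc, with its 95% interval from edgeR, for all 6 libraries (filled circles) and without DEL-1-Fc replicate 1 (open diamonds). Every interval includes 0 except that of Ikzf3 without DEL-1-Fc replicate 1, 0.19 to 0.46.

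The members were more variable among DEL-1-Fc than among Fc libraries. The coefficient of variation in DEL-1-Fc was 17.8% for Ikzf3, 13.2% for Ikzf4, 12% for Ikzf2, 4.74% for Ikzf1 and 3.78% for Ikzf5. In Fc it was 6.74% for Ikzf3, 3.3% for Ikzf4, 5.41% for Ikzf2, 1.22% for Ikzf1 and 2.63% for Ikzf5. The same held for the transcriptome, with a median of 11% in DEL-1-Fc and 5.35% in Fc over all tested genes, so the wider spread was also seen outside the family.

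The summed level of the family was 878.1, 1001 and 930 CPM in DEL-1-Fc replicates 1 to 3, against 911.8, 930.1 and 895.7 CPM in Fc replicates 1 to 3. Ikzf1 held 71.4 ± 1.54% of this sum in DEL-1-Fc and 70.9 ± 0.672% in Fc (SD, n = 3 each). Ikzf4 held 10.8 ± 0.712% in DEL-1-Fc and 11.5 ± 0.187% in Fc, and Ikzf3 held 8.54 ± 1.07% in DEL-1-Fc and 7.73 ± 0.377% in Fc. Ikzf1 thus outweighed the other members together in both groups. Ikzf5 held 6.61 ± 0.184% in DEL-1-Fc and 6.87 ± 0.0506% in Fc, and Ikzf2 held 2.66 ± 0.238% in DEL-1-Fc and 2.94 ± 0.146% in Fc. Per kilobase of exon, Ikzf1 made up 74.8 ± 1.26% of the family in DEL-1-Fc and 74.2 ± 0.571% in Fc.

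Of these shares only that of Ikzf5 did not overlap between groups, at 6.78%, 6.42% and 6.63% in DEL-1-Fc against 6.87%, 6.92% and 6.82% in Fc. Among single tested genes the groups did not overlap in 34.8%, and no such rate was computed for shares outside the family. Pstk covers 81.3% of the exon bases of Ikzf5, so its share is less certain, and every share is taken of a sum that holds Ikzf5. For Ikzf5, the values were as follows. The difference in the Ikzf5 share of -0.26 percentage points had an exact two-sided permutation p of 0.1, the smallest that 3 against 3 libraries can give (0.5 adjusted over the 5 shares). The other shares had exact permutation p-values of 0.2 to 0.8. Since the shares of a library add up to 100%, they do not vary freely of one another.

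The ratio of each pair of members was also compared, since it does not depend on how libraries are scaled. In 3 of 10 pairs the groups did not overlap. Among single tested genes they did not overlap in 34.8%, and no such share was computed for pairs of genes outside the family. The count of pairs is therefore a description only. Pairs that share a member, such as Ikzf2 to Ikzf3 and Ikzf3 to Ikzf4, are also not independent of each other. The log2 ratio of Ikzf2 to Ikzf3 was -1.57, -1.80 and -1.66 in DEL-1-Fc against -1.46, -1.43 and -1.30 in Fc, so Helios mRNA was lower relative to Aiolos mRNA in every DEL-1-Fc library, with a difference in means of -0.28. The log2 ratio of Ikzf3 to Ikzf4 was -0.50, -0.35 and -0.18 in DEL-1-Fc against -0.58, -0.53 and -0.62 in Fc, a difference of 0.24. The log2 ratio of Ikzf1 to Ikzf5 was 3.43, 3.45 and 3.42 in DEL-1-Fc against 3.38, 3.34 and 3.38 in Fc, a difference of 0.07. Each had an exact two-sided permutation p of 0.1, the smallest possible, and 0.333 when adjusted over the 10 pairs, so none passed. For the other 7 pairs, with exact permutation p-values of 0.2 to 0.7, the groups overlapped. With 1 library left out, the difference for Ikzf2 to Ikzf3 ranged from -0.33 (without DEL-1-Fc replicate 1) to -0.22 (without DEL-1-Fc replicate 2). That for Ikzf3 to Ikzf4 ranged from 0.15 (without DEL-1-Fc replicate 3) to 0.31 (without DEL-1-Fc replicate 1).

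Genes that work with or under the family were read from 5 further lists, with 42 genes in all. Of these, 3 rose and 9 fell, beside 6.4% higher and 6.22% lower of all tested genes. Ikaros proteins recruit the NuRD, Sin3 and CtBP corepressors and the Smarca4 remodeller, and of 18 such genes 0 rose, 2 fell and 16 were not called. Those that fell were Mta1, a NuRD subunit (184.6 ± 23.4 CPM with DEL-1-Fc and 239.3 ± 8.09 CPM with Fc; log2 fold change -0.37, SE 0.0921, adjusted p = 0.0299), and Gatad2a, which links the remodelling and deacetylase modules of NuRD (157.6 ± 8.54 CPM with DEL-1-Fc and 195.4 ± 9.39 CPM with Fc; -0.31, SE 0.0667, adjusted p = 0.017). The list's median log2 fold change was 0.02. Without Fc replicates 1, 2 or 3 the Mta1 call was lost (adjusted p = 0.131, 0.111 and 0.0791). The Gatad2a call was also lost, with an adjusted p of 0.0594 without DEL-1-Fc replicate 3, 0.0981 without Fc replicate 1 and 0.0912 without Fc replicate 2. Ctbp1, the corepressor tied to Eos, measured 272.4, 214.8 and 214.4 CPM with DEL-1-Fc and 205.0, 199.0 and 211.6 CPM with Fc, and was not called (0.19, adjusted p = 0.247).

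Eos acts in mouse Tregs within a group of factors around Foxp3 that includes Irf4, Satb1, Lef1 and Gata1. Unlike Ikzf4 itself, 4 of these 5 were called, 2 higher and 2 lower, beside 12.6% of all tested genes. In all 5 the groups did not overlap, as in 34.8% of all tested genes. Gata1, better known from red cell precursors, rose, with 21.1, 18.9 and 15.2 CPM with DEL-1-Fc against 4.95, 7.29 and 6.96 CPM with Fc (log2 fold change 1.52, SE 0.17, adjusted p = 0.000713). Irf4, an activation-induced factor, fell to 754.8 ± 117 CPM with DEL-1-Fc, against 1068 ± 23.4 CPM with Fc (-0.50, SE 0.109, adjusted p = 0.018). Foxp3 rose (0.54, adjusted p = 0.0166) and Satb1, a chromatin organiser, fell (-0.43, adjusted p = 0.00308), while Lef1 had 239.5, 278.6 and 248.2 CPM with DEL-1-Fc against 219.6, 234.8 and 216.0 CPM with Fc and did not pass. Foxp3 shares 18.6% of its exon bases with Flicr on the same strand. On the opposite strand it shares 12.9% with Ccdc22, 8.15% with Gm36995 and 5.81% with Ppp1r3f. Lef1 shares 13.75% with Gm43352 on the opposite strand. Since the strand setting is unknown, the values of Foxp3 and Lef1 are less certain. Without Fc replicate 1, 2 or 3, the Irf4 difference missed the threshold (adjusted p = 0.0782, 0.0772 and 0.0634). Foxp3 missed it without DEL-1-Fc replicate 1 (0.0928) and without Fc replicate 1 (0.0873) or 3 (0.0753). The test compares each gene between groups, and the difference between Ikzf4 and these genes was not tested.

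Ikaros activity is set after translation by phosphorylation through casein kinase 2 (CK2), dephosphorylation through protein phosphatase 1 (PP1) and, with thalidomide-type drugs in human cells, destruction through the cereblon ubiquitin ligase. Of 6 CK2 and PP1 subunit genes, 0 rose and 2 fell, beside 6.4% and 6.22% of all tested genes. The list median was -0.12. Csnk2a2, a CK2 catalytic subunit, measured 63.2 ± 2.58 CPM with DEL-1-Fc and 79.2 ± 1.71 CPM with Fc (log2 fold change -0.33, SE 0.0598, adjusted p = 0.00803). Ppp1cb, a PP1 catalytic subunit, measured 260.3 ± 28.4 CPM with DEL-1-Fc and 344.5 ± 9.31 CPM with Fc (-0.40, SE 0.0838, adjusted p = 0.0146; 17.5% of its exon bases are shared with Gm43312 on the same strand). Csnk2a2 no longer passed without Fc replicate 1 (adjusted p = 0.0554), nor did Ppp1cb without Fc replicate 1, 2 or 3 (0.0769, 0.050001 and 0.0703). None of the 5 cereblon ligase genes (Crbn, Ddb1, Cul4a, Cul4b and Rbx1) was called, in none did the groups stand apart, and the list median was 0.002. The groups stood apart in 7 of the 18 corepressor genes and 4 of the 6 CK2 and PP1 genes. Among all tested genes they did so in 34.8%.

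Of 8 genes known as targets of Ikaros family factors in T cells, 7 could be tested, since Il10 had too few counts. In 4 of the 7 the groups did not overlap, beside 34.8% of all tested genes. Bcl6, a repressor that Aiolos is known to activate with Stat3, rose, and Tbx21, Ifng and Il2 fell, with a list median of -0.39. Il2, which Ikaros, Aiolos and Eos are each known to repress, had 38.2, 31.2 and 37.3 CPM with DEL-1-Fc against 49.98, 47.0 and 42.3 CPM with Fc (log2 fold change -0.39, SE 0.0954, adjusted p = 0.0308). Every DEL-1-Fc library was below every Fc library for Il2. Il2 missed the threshold after thinning to equal depth (adjusted p = 0.0724), without DEL-1-Fc replicate 2 (0.0607) or 3 (0.0629), and without Fc replicate 1 (0.146) or 2 (0.11). Tbx21, encoding the T helper 1 regulator T-bet, averaged 71.7 ± 0.69 CPM with DEL-1-Fc and 162.1 ± 10.4 CPM with Fc (log2 fold change -1.18, adjusted p = 4.4e-05). Its target Ifng, encoding interferon gamma, averaged 11.3 ± 2.29 CPM with DEL-1-Fc and 31.9 ± 3.81 CPM with Fc (-1.49, adjusted p = 0.000418). Bcl6 averaged 9.89 ± 1.47 CPM with DEL-1-Fc and 5.35 ± 0.451 CPM with Fc (0.89, adjusted p = 0.00279). Tbx21, Ifng and Bcl6 kept their calls without any 1 library. Ifng shares 26% of its exon bases with Gm49751 on the same strand. NK and CD8 T cells also transcribe Tbx21 and Ifng. The 3 NK markers summed to 0.488 to 1.11 CPM with DEL-1-Fc and 2.69 to 3.33 CPM with Fc, nearly all of it Klrk1, which fell, with Ncr1 at 0. The 2 CD8 markers summed to 11.9 to 12.8 CPM with DEL-1-Fc and 10.1 to 10.4 CPM with Fc. Cd8a rose, from 2.37 CPM with Fc to 4.06 CPM with DEL-1-Fc. Cd8b1, at 8.20 CPM with DEL-1-Fc and 7.96 CPM with Fc, was not called (log2 fold change 0.04, edgeR adjusted p = 0.846). The part of such cells in the Tbx21 and Ifng results was not tested. Prdm1, Hes1 and Dtx1 stood at 0.169 to 1.94 CPM in every library and were not called. These lists were chosen with earlier results known, and their counts are descriptions beside the 6.4% higher and 6.22% lower of all tested genes.

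**Figure D4:**
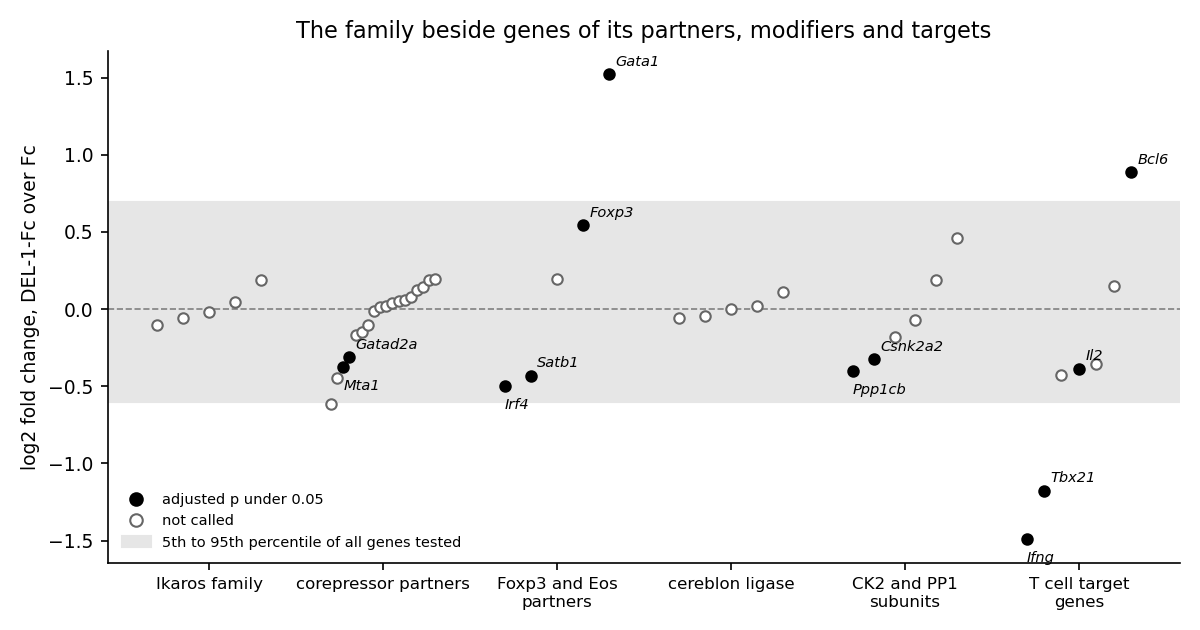
Log2 fold change, DEL-1-Fc over Fc, of every tested gene of the family and of the 5 lists around it; filled points are called at an edgeR adjusted p under 0.05, and the grey band spans the 5th to 95th percentile of all tested genes (-0.60 to 0.69). The 5 family genes lie between -0.10 and 0.19 with none called, whereas Gata1, Bcl6, Tbx21 and Ifng lie outside the band.

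Genes beside the members on the chromosome were examined as well, a choice made after the members' values were seen. Within 100 kb of the 5 genes lay 27 other tested genes, none of them near Ikzf2, and 3 were called higher and 1 lower, against 12.6% of all tested genes called in either direction, so calls among neighbours were about as frequent as elsewhere. Grb7, an adaptor of receptor kinases 9529 bases from Ikzf3, rose (2.70 CPM with DEL-1-Fc and 1.16 CPM with Fc; log2 fold change 1.22, SE 0.165, adjusted p = 0.00174). Dgka, a kinase that removes the second messenger diacylglycerol, lies 74143 bases from Ikzf4 and rose (284.0 CPM with DEL-1-Fc and 208.8 CPM with Fc; 0.44, SE 0.0626, adjusted p = 0.00224), as did Pmel (0.56, SE 0.118, adjusted p = 0.0157). Gm11999, a non-coding gene inside Ikzf1 on the other strand and uncertain where strand is unknown, fell (-0.75, SE 0.205, adjusted p = 0.0455). The Pmel call was lost without any 1 of 5 libraries (adjusted p = 0.0506 to 0.0859, kept without DEL-1-Fc replicate 1), and that of Gm11999 without DEL-1-Fc replicate 3 (0.127) or Fc replicate 1, 2 or 3 (0.173, 0.0929 and 0.136). Gm11999 also missed the threshold with library sizes alone (0.0616), limma-voom (0.0528), a dispersion fit that was not robust (0.0518) and the replicate block (0.0948). The Grb7 and Dgka calls held without any 1 library. Acadsb, whose start lies 80 bases from that of Ikzf5 on the opposite strand, was not called (0.03, adjusted p = 0.825).

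Genes that followed each member were sought among 9226 tested genes with a mean of at least 5 CPM. Predicted genes (Gm numbers), Rik and other clone names and genes without a symbol were left out. Those whose log2 CPM followed each member most closely over the 6 libraries were Tnrc6c, Fam193b and Abr for Ikzf1 (Pearson r = 0.992, 0.986 and 0.985) and Exd2, Cep120 and Dpp4 for Ikzf2 (0.999, 0.999 and 0.994). For Ikzf3 they were Tmem127, Golga1 and Zfp91 (0.993, 0.987 and 0.986), for Ikzf4 E2f8, Nup210 and Plekha5 (0.997, 0.993 and 0.985), and for Ikzf5 Msn, Emsy and Myo9b (0.994, 0.993 and 0.989). These are the highest of 9226 values over 6 points from shared libraries and are descriptions only. None of the 15 genes was called between DEL-1-Fc and Fc. They were chosen to follow members that were not called in the same libraries, so this was largely set by the choice.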

How the data were processed

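Measured were polyA-selected RNA libraries of cultured mouse Tregs, 3 per group. The authors deposited raw counts of reads per gene, made with STAR and HTSeq 0.6.0 on GRCm38 (mm10) per the submitters' processing notes. Annotation release, strand setting and multi-mapping treatment were not given in the sources used here. Symbols, exon lengths and overlaps came from GENCODE M21 (GRCm38), which matched 37607 of 39179 identifiers.

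The test was edgeR's (version 4.0.16, under R 4.3.3; low counts removed per group by filterByExpr with a minimum count of 10 and a minimum total of 15, TMM scaling, robust quasi-likelihood test, Benjamini-Hochberg adjustment over the 14928 genes kept, calls at 0.05). CPM values use TMM-scaled library sizes. Each SE comes from the F statistic (size of the log2 fold change over the root of F), and 95% intervals use the test's degrees of freedom. Shares and ratios were compared with exact permutation tests. Replicates of a group differed more than counting noise (chi-square per degree of freedom at least 18.3). The script was tested on simulated counts. Alternatives included DESeq2 1.42.0 and limma-voom (limma 3.58.1). Named were the members, called genes of the lists (up to 6 each), and the 3 genes most like each member; any further gene, the neighbours and the ratios were picked with their values in view. The members and lists were chosen with earlier results of these data known. The result of 1 marker list is not reported here.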

Additional observations from a re-analysis of the deposited data

How the results depend on the processing

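Each member's log2 fold change was recomputed under 16 alternatives. Ikzf1 and Ikzf2 kept their direction and stayed without a call in all 16 (0.01 to 0.07 and -0.17 to -0.01). Ikzf3 ranged from 0.0867 without DEL-1-Fc replicate 2 to 0.32 without DEL-1-Fc replicate 1, where alone it was called, and from 0.17 to 0.22 over the other settings. Ikzf4 ranged from -0.17 without DEL-1-Fc replicate 2 to 0.0167 without DEL-1-Fc replicate 1, a change of sign. Ikzf5 ranged from -0.0487 to 0.0056 over the left-out libraries and turned positive without DEL-1-Fc replicate 1 and with library sizes alone (0.00828). The cause of these changes was not tested. With 1 library left out, 428 to 1485 genes were called higher and 466 to 1518 lower, 0 to 1 members were called higher, and 3 to 10 of the genes in the related lists were called lower. The share of Ikzf1 differed by -0.37 percentage points without DEL-1-Fc replicate 1, against 0.50 with all libraries. The ratios with 1 library left out were added after the data were seen. With the replicate number as a block, Ikzf3 had a log2 fold change of 0.17 (edgeR adjusted p = 0.317), 733 genes were called higher and 777 lower, and the block changed no call of a member or of a list gene, but ended that of the neighbour Gm11999 (adjusted p = 0.0948). Libraries of the same number deviated together with correlations of 0.0163, 0.0885 and 0.0425, and 5 of 6 libraries correlated best with their own number. The block lowered the SE of Ikzf2 (to 0.0737), Ikzf3 (to 0.0985) and Ikzf4 (to 0.0698), and those of Ikzf1 and Ikzf5 hardly moved. With 3 libraries per group, these values cannot decide whether the numbers are pairs. The numbers are not said to pair the libraries, so the main fit used no block. At these depths the members had 707 to 39983 counts, so the spread between libraries, not counting error, set the width of the intervals.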
